A study of Mus musculus with 6 samples.

Results

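The Krüppel-like factor (KLF) genes considered here are Klf2, Klf3, Klf4, Klf6, Klf7, Klf9, Klf10, Klf12, Klf13 and Klf15, 10 of the 31053 genes in the count tables. They were chosen by symbol as a list of family members, and their molecules were summed by library and by class of nuclei. Nuclear RNA of single nuclei was counted in mouse kidney cortex with 10x Chromium droplets. The knockout group held 3 libraries of genotype Podocin-Cre Klf4 fl/fl, in which a recombinase driven by the podocin promoter acts on Klf4 in podocytes, the cells that hold the slit diaphragm of the kidney filter. The control group held 3 libraries of genotype Klf4 fl/fl without the recombinase. All 6 were of the FVB/N strain and carried the floxed Klf4 alleles. The labels give no age, sex, litter or day, and they do not state that each library is a separate mouse, so p-values measure the spread between libraries. The comparison asked which KLF genes mark which cell type, and whether other members change where Klf4 is deleted.

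KLF proteins are transcription factors that bind GC-rich and CACCC sequences through zinc fingers at their C-terminal end. Members share these fingers and differ in the rest of the protein, so that some activate genes and others repress them. In the kidney, KLF2 and KLF4 are known for their part in quiescent endothelium, KLF6 as a gene induced by tissue injury, KLF15 for podocyte differentiation and amino acid metabolism, and KLF4 for the podocyte's differentiated state.

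The stretch before the transcription start is shown for 4 members that the results return to, Klf2 and Klf4 as the endothelial pair and Klf6 and Klf15 because the groups lay apart for them over all nuclei. Each holds the 250 bases before the start, from RefSeq (GRCm38.p6, gene strand, 5′ to 3′). The intervals are chr8:72318812-72319061 (plus strand) for Klf2, chr4:55532476-55532725 (minus strand) for Klf4, chr13:5861239-5861488 (plus strand) for Klf6 and chr6:90462326-90462575 (plus strand) for Klf15. Capitals mark a match to the MEF2 consensus in Klf2 and the E-box CACGTG in the other members.
Klf2: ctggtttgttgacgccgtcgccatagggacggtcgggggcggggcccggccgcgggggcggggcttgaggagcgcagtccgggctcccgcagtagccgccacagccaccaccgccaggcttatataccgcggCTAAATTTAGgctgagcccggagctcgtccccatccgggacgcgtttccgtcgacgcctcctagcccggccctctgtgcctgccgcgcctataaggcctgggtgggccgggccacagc
Klf4: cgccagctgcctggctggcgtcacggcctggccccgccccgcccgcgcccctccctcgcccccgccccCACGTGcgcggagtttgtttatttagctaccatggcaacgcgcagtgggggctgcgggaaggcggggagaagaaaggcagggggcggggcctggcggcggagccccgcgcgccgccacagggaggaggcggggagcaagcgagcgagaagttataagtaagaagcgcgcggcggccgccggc
Klf6: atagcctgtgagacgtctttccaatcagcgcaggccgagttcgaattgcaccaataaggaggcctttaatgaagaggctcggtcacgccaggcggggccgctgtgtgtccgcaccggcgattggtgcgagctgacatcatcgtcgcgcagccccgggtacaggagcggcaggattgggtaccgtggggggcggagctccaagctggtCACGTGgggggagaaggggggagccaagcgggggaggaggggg
Klf15: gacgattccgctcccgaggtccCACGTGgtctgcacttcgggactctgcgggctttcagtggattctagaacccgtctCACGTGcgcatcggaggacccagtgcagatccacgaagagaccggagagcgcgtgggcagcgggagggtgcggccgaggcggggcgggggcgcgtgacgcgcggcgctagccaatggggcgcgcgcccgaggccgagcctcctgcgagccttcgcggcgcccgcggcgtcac
Both strands were searched, and a palindromic match was counted once. The MEF2 consensus, read by the factors that switch Klf2 on under flow, matched between 118 and 109 bases before the Klf2 start, in none of the other 8 members with a RefSeq promoter, and in 1.69% of 32851 mouse promoters of this length. The E-box CACGTG, read by clock factors among others, was found in 3 of the 9 members, Klf4 (182 to 177 bases before the start), Klf6 (43 to 38) and Klf15 (228 to 223 and 172 to 167), and in 6.02% of all promoters. The KLF box CACCC was in 7 of the 9 and in 52.0% of all promoters, and no CACCC match overlapped another motif in the members' windows. Klf2 and Klf4 shared none of the 3 searched motifs in these windows. A match describes letters and shows no binding.

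The files held 64442 barcodes, of which 54423 nuclei were kept, 28904 in knockout and 25519 in control libraries. Total unique molecular identifiers (UMIs, counts of single RNA molecules) ran from 9356394 to 52478581 in knockout libraries and from 8270961 to 62016616 in control libraries. Knockout 1 and control 1 stood apart: they held 22080 and 21957 barcodes, against 3919 to 6079 in the other 4 libraries. Their median mitochondrial share was 1.02% and 2.67%, against at most 0.163% elsewhere. Pairs of libraries shared between 5 and 132 barcodes, and 809 kept nuclei had such a barcode. Levels are given as CPM, the UMIs of a gene per 1000000 UMIs of its class in a library, and a library enters a class with at least 10 nuclei.

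The nuclei fell into 46 clusters, grouped by marker genes into 15 classes, each standing for nuclei like that cell type. Proximal tubule had a looser rule. A cluster took that name when every other class scored under 0.3 and its own score was at least -0.3, with no marker required to stand out. Clusters so named scored down to -0.23. The cluster led by Bbox1, at -0.01 with 0 markers raised over other nuclei, held 19.4% of knockout proximal tubule nuclei, pooled over libraries. KLF genes and the related SP genes were left out of the genes used for clustering, and no KLF gene was among the 10 leading genes of any cluster. Podocyte nuclei numbered 396 in knockout and 256 in control libraries, and all 13 podocyte markers were detected in them. Injured tubule nuclei numbered 2847 in knockout and 122 in control libraries, and control 2 had only 8 of them, so that class has 2 control libraries. Parietal epithelial nuclei numbered 164, led by Tnc, Cdh6, Ncam1 and Akap12, with a marker score of 1.57 for that class and 0.95 for injured tubule. Mixed clusters with 6130 nuclei and unnamed ones with 3808 were set aside. Among these, clusters with endothelial markers beside proximal tubule RNA or a low score held 5.63% of nuclei in knockouts and 6.76% in controls. A cluster with mesangial, mural and fibroblast markers held 2.41% in knockouts and 1.70% in controls. These percents pool the libraries of a group. The mesangial cluster held 440, 109 and 148 of the 18238, 4895 and 5771 kept nuclei in knockouts. In controls it held 216, 77 and 142 of 16726, 3741 and 5052. An unnamed cluster of 1992 nuclei led by Bcat1, Cyp7b1 and Slc22a19 held 1139, 354 and 415 nuclei in knockouts, against 36, 20 and 28 in controls, and 8 of its 10 leading genes were also leading genes of proximal tubule clusters. The classes rest on the clustering: when it was repeated with another random seed, a choice made after seeing the data, 8 of the 10 members kept their highest class. They also rest on the libraries numbered 1: only 6 of the 10 kept it without knockout 1, where Klf4, Klf7, Klf9 and Klf10 had another highest class, and 6 without both libraries numbered 1, where Klf4, Klf15, Klf9 and Klf10 had. Without control 3 it was 7, as it was with KLF and SP genes among the clustering genes.

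Of the 10 members, Klf2, Klf3, Klf4, Klf7 and Klf10 had their highest mean level in endothelial nuclei. Klf6 was highest in injured tubule, Klf15 and Klf9 in proximal tubule, Klf13 in thin limb and Klf12 in distal convoluted tubule. The contrast between classes was steep for Klf2, whose endothelial level was 31.0 times the median of the 15 classes, and for Klf4 (8.32 times), Klf6 (5.77 times) and Klf7 (5.55 times). It was shallow for Klf9, at 1.23 times the median in its highest class, and for Klf12, at 1.36 times. The median class rests on few UMIs for Klf2 (thick ascending limb, 6, 0 and 1 UMIs in knockouts and 12, 0 and 1 in controls) and Klf4 (podocytes, 5 UMIs in all with 3 of 6 libraries at 0), so the ratios of these members are loose. All the ratios are a description of classes built from the same nuclei, and carry no test.

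**Figure D1:**
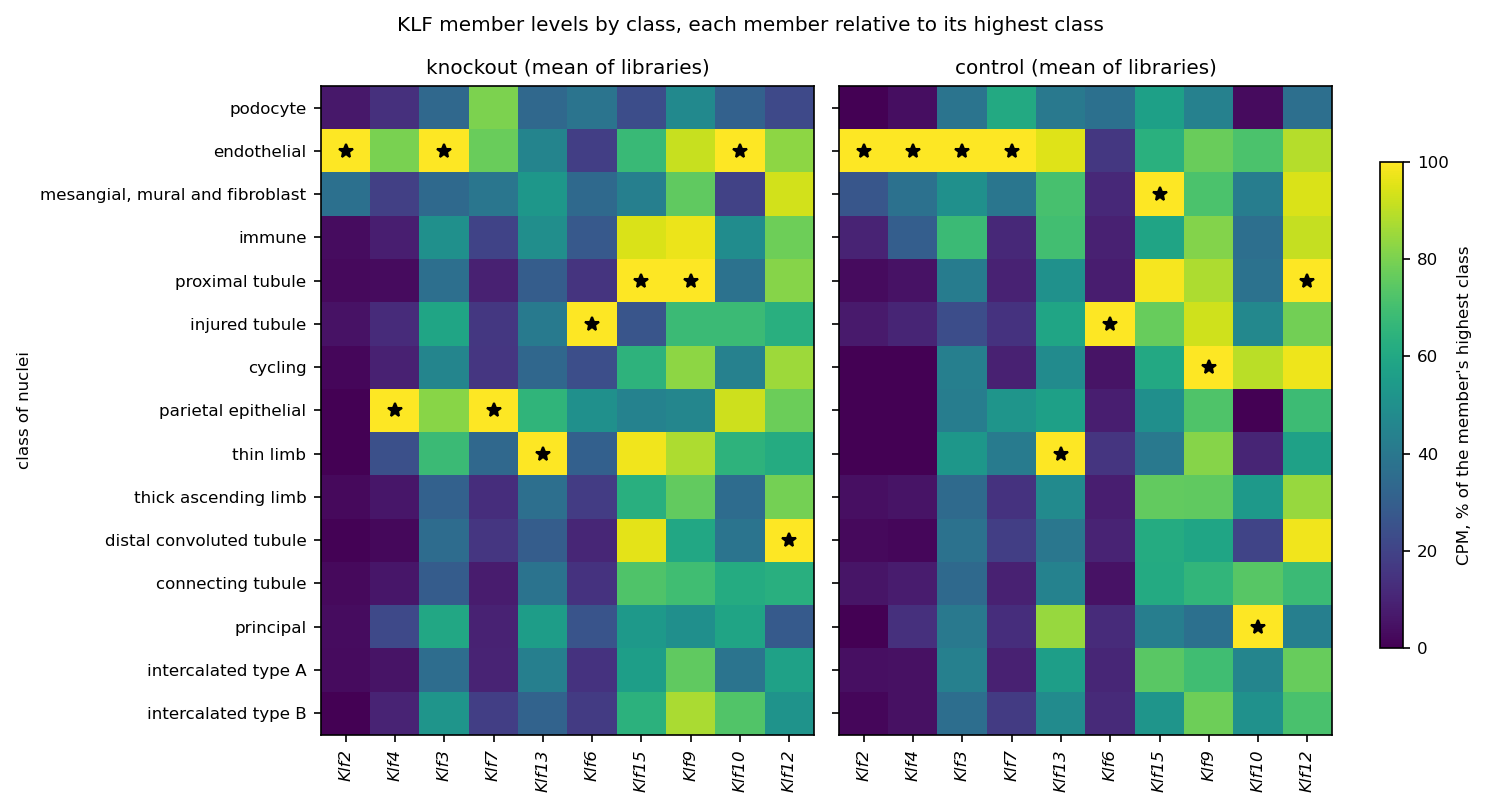
Mean CPM of each member (columns) in each class of nuclei (rows) as a percent of that member's highest class, in knockout libraries (left) and control libraries (right), with a star at the highest class. Klf2 and Klf3 have their star in endothelial nuclei, Klf13 in thin limb and Klf6 in injured tubule in both groups, while the star of the other 6 members lies in different classes in the groups.

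Klf2 was highest in endothelium in this tissue. Its product is a flow-induced factor that keeps endothelium anti-inflammatory and anti-thrombotic. In endothelial nuclei it stood at 66.7, 71.9 and 54.8 CPM in knockouts, against 59.2, 22.1 and 104 CPM in controls. Control 2, with 3 UMIs, lay below the other 5 libraries, and control 3 above them. Endothelial Klf2 was above every other class in 5 of 6 libraries, and its mean over the groups was 3.14 times that of mesangial, mural and fibroblast nuclei, the next class. There Klf2 was at 71.5, 0 and 0 CPM in knockouts, against 49.4, 0 and 0 CPM in controls, so that only the libraries numbered 1 gave UMIs. In proximal tubule nuclei it was at 0.91 to 2.75 CPM in knockouts and 0.39 to 4.23 CPM in controls. The endothelial class held 18.7, 53.8 and 46.9 percent in knockouts, against 18.6, 12.0 and 56.5 percent in controls of a library's Klf2 UMIs, while it held at most 3.22% of the UMIs of all genes in any library. In the set-aside clusters with endothelial markers Klf2 was lower, at 13.7, 5.47 and 5.55 CPM in knockouts, against 8.84, 8.22 and 16.4 CPM in controls, below the endothelial class in each of the 6 libraries.

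Klf4, the deleted gene and a close partner of Klf2 in endothelium, had the same highest class. Endothelial nuclei held 35.0, 25.7 and 40.2 CPM in knockouts, against 22.4, 14.8 and 29.4 CPM in controls. The groups overlapped through knockout 2 and control 3, and the values rest on 21, 5 and 11 UMIs in knockouts and 20, 2 and 11 in controls. In 4 of 6 libraries the endothelial level was above that of the next class, parietal epithelium, and in 3 of 6 it was the highest of all classes. Parietal epithelial nuclei gave Klf4 UMIs in knockouts 2 and 3 alone, 1 and 5 of them. Across the 15 classes, Klf4 was most like Klf3 (Pearson r of 0.848 between class means on the log2(CPM + 10) scale) and next Klf2 (0.820), the most alike pairs of members. These and the other such values describe 15 class means that share libraries and free RNA.

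Endothelial nuclei came from 3 clusters: 573 nuclei led by Meis2, Flt1, Plpp1 and Emcn, 223 led by Eln, Pde3a and Heg1, and 223 led by Bcat1, Cyp7b1, Akr1d1 and Flt1. In the Eln-led cluster Klf2 stood at 114, 271 and 89.1 CPM in knockouts, against 275, 43.2 and 253 CPM in controls. The Emcn cluster had 111, 20.8 and 113 CPM in knockouts, against 28.7, 20.9 and 62.8 CPM in controls, below the Eln-led cluster in 5 of 6 libraries. Klf3, a repressor that recruits CtBP, was higher in the Eln-led than in the Emcn cluster in 6 of 6 libraries, at 168, 316 and 334 CPM in knockouts, against 232, 216 and 253 CPM in controls in the Eln-led one. Klf7 ran the other way, with 421, 417 and 555 CPM in knockouts, against 301, 313 and 502 CPM in controls in the Emcn cluster, above the Eln-led one in each library but control 3. The Eln-led cluster had 31 to 56 nuclei in a library, and its Klf2 values rest on 2 to 38 UMIs. The Bcat1-led cluster was named from its endothelial marker score of 1.13, with Flt1 and Cyyr1 among its 10 leading genes, while 5 of the 10, namely Bcat1, Cyp7b1, Akr1d1, Slc22a19 and Mep1b, were also leading genes of proximal tubule clusters. It had Klf2 at 3.96, 9.75 and 0 CPM in knockouts, against 3.72 and 0 CPM in controls (controls 1 and 2; control 3 had 4 such nuclei).

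**Figure D2:**
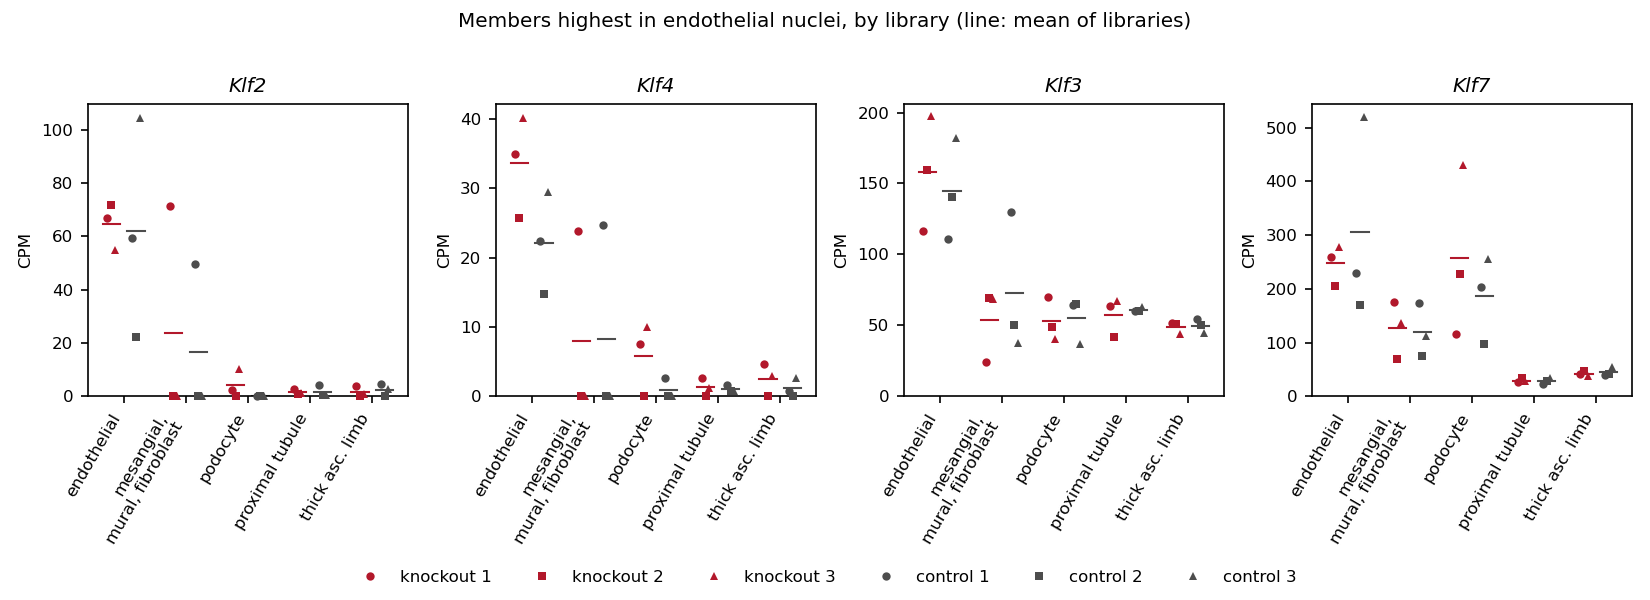
CPM of Klf2, Klf4, Klf3 and Klf7 (panels) in 5 classes of nuclei, with 1 point per library (knockout red, control grey, shape by library number) and a line at the mean of a group. The endothelial mean is the highest of these classes for Klf2, Klf4 and Klf3 in both groups, and knockout 3 has the highest podocyte level of Klf7.

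Klf3, Klf7 and Klf13 were detected in every class and high in endothelium. Klf3 was at 117, 159 and 197 CPM in knockouts, against 111, 140.3 and 182 CPM in controls in endothelial nuclei, its highest class in 4 of 6 libraries. In other classes its group means lay between 46.2 and 129 CPM in knockouts and 34.3 and 98.1 CPM in controls. Klf7, known for its role in neurons and in fat cell differentiation, was at 260.1, 205 and 278 CPM in knockouts, against 229, 169.8 and 519 CPM in controls in endothelial nuclei, with control 3 far above the other 5 libraries. Parietal epithelial nuclei held 147, 534 and 285 CPM in knockouts, against 170.2, 117 and 189.7 CPM in controls, and podocytes, described below, came after them. The ranges of these 3 classes overlapped in both groups, and endothelium was the highest class in 4 of 6 libraries. In proximal tubule Klf7 was at 26.3 to 33.5 CPM in knockouts and 23.5 to 34.6 CPM in controls. Klf13, which represses through SIN3A, was at 249, 235 and 165 CPM in thin limb nuclei of knockouts, against 161.45 CPM in control 1, the one control library with enough such nuclei. Thin limb was highest for Klf13 in 3 of 4 libraries, followed by principal (129 CPM over the groups) and endothelial nuclei (126 CPM), whose ranges overlapped.

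Klf6, a zinc-finger activator induced early after tissue injury, was highest in injured tubule in both genotypes. Injured tubule nuclei held 219, 241 and 256 CPM in knockouts, against 215 and 261 CPM in controls (controls 1 and 3). The groups overlapped, with a log2 fold change of 0.05 ± 0.23 (SE) and an adjusted p of 1 in edgeR's quasi-likelihood test (15 of 8303 genes called, 0.181%). When each nucleus was instead put in the class of its highest marker score, Klf6 was called higher in knockouts there, at 2.33 with an adjusted p of 0.0051, while over the other alternatives the log2 value lay between -0.23 and 0.18. Proximal tubule nuclei held 35.3, 37.7 and 35.5 CPM in knockouts, against 18.9, 16.4 and 23.0 CPM in controls. Injured tubule gave 40.9, 36.2 and 26.6 percent in knockouts, against 4.32, 0.79 and 4.41 percent in controls of a library's Klf6 UMIs. Injured tubule nuclei themselves were 11%, 10.3% and 5.98% of nuclei in knockouts, against 0.574%, 0.214% and 0.356% in controls. Podocytes (90.1 CPM over the groups) and parietal epithelium (69.8 CPM) came next, with ranges that overlapped in knockouts and not in controls, and connecting tubule was lowest at 23.6 CPM.

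Klf15 is a target of glucocorticoids that drives branched-chain amino acid breakdown and helps podocytes differentiate. Proximal tubule nuclei held 43.2, 44.7 and 28.5 CPM in knockouts, against 58.4, 55.5 and 63.9 CPM in controls, and the groups did not overlap. In injured tubule it was at 12.1, 10.5 and 8.31 CPM in knockouts, against 32.0 and 60.2 CPM in controls, the controls resting on 7 and 3 UMIs, and each knockout lay below its own proximal tubule level. Over the 15 class means, Klf15 was least like Klf6, with r = -0.47. Mesangial, mural and fibroblast nuclei and distal convoluted tubule were next at 38.5 and 37.1 CPM over the groups, and proximal tubule was the highest class in only 2 of 6 libraries.

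Klf9, Klf12 and Klf10 gave UMIs in every class. Proximal tubule markers did so too: their 16 genes summed to 2569 to 16568 CPM in knockouts and 4143 to 26495 CPM in controls in the other 14 classes, against 20352 to 21826 CPM in knockouts and 19067 to 29383 CPM in controls in proximal tubule itself. The part of RNA from other nuclei in the level of a member in a class was not tested. Klf9, a glucocorticoid-induced member that follows the circadian clock, was at 225, 339 and 224 CPM in knockouts, against 265, 254 and 273 CPM in controls in proximal tubule. Its 5 highest classes lay between 237 and 264 CPM over the groups and had overlapping ranges. Principal nuclei were lowest, at 133, 175 and 86.3 CPM in knockouts, against 126, 112 and 96.8 CPM in controls, followed by podocytes. Its mean was lower in knockouts in 12 of 15 classes. Klf12, a repressor of the CtBP-recruiting kind, was at 601, 852 and 629.8 CPM in knockouts, against 703, 953 and 834 CPM in controls in distal convoluted tubule. Mesangial, mural and fibroblast, cycling and proximal tubule nuclei were next at 724, 710.3 and 709 CPM over the groups, within the spread of the first, and the first class was the highest in 0 of 6 libraries. Klf12 was lowest in podocytes (233 CPM over the groups) and principal nuclei (280.5 CPM). Klf10, an early target of TGF-beta, was low throughout. It had 40.02, 15.4 and 25.6 CPM in knockouts, against 14.5, 22.1 and 26.8 CPM in controls in endothelial nuclei. In the other classes its group means were between 5.30 and 24.9 CPM in knockouts and 0 and 29.4 CPM in controls. Endothelium was its highest class in only 1 of 6 libraries, at 1.07 times the level of principal nuclei over the groups.

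The genes most like each member were read from 9688 genes with at least 20 CPM in at least 1 class, by the Pearson r of class means over the 15 classes. Klf2 was followed by Rasip1 (0.977), Sox17 (0.977) and Palmd (0.974), and Klf4 by Rnf125 (0.933), Helz2 (0.931) and Amotl1 (0.931), all with their own highest level in endothelial nuclei. For Klf3 the closest were Flt1 (0.882), Acvrl1 (0.858) and Srgn (0.852), also highest there, and Flt1, a VEGF receptor, was one of the markers of that class. Among the genes close to Klf7 were Rbms1 (0.915) and Sparc (0.912), both highest in podocytes. Klf13 was closest to Fmnl3 (0.873), Cdh13 (0.836) and Cpne2 (0.825). Klf6 was closest to Relb (0.907), Tnfrsf12a (0.869) and Ccl2 (0.862), each highest in injured tubule: Relb is a subunit of NF-kappaB, Tnfrsf12a the receptor of TWEAK and Ccl2 a chemokine that draws monocytes. Klf15 was closest to Slc25a38 (0.930), Acad11 (0.885) and Camsap3 (0.836), and Klf9 to Sgpp1 (0.959), Sult1d1 (0.956) and Scp2 (0.937), the last 3 highest in proximal tubule. Klf10 was closest to Rnf4 (0.841), Xxylt1 (0.814) and Gtpbp1 (0.80), and Klf12 to Osbpl6 (0.885), Rlf (0.866) and Pcbp4 (0.856).

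Klf4 itself was near the limit of detection in podocytes, where it is deleted. It had 7.52, 0 and 10.0 CPM in knockouts, against 2.58, 0 and 0 CPM in controls, from 3, 0 and 1 UMIs in knockouts and 1, 0 and 0 in controls. The difference of 4.99 CPM did not pass a two-sided exact permutation test (p = 0.40, where 0.1 is the smallest p that the 20 possible relabellings can give). A level of 3 UMIs, the limit that a count of 0 allows, would be 7.52, 48.8 and 30.1 CPM in the 3 knockouts and 7.74, 48.8 and 36.6 CPM in the 3 controls, so a loss of Klf4 was not detectable at this depth. The labels do not say which exons are floxed, and 10x tags near the 3′ end can come from exons that remain, so these UMIs are no check of the deletion. The Klf4 mean was higher in knockouts in 13 of 15 classes, podocytes among them. Some of these rest on few UMIs: 2 in knockouts and 2 in controls in distal convoluted tubule, and 4 and 3 in principal nuclei. Proximal tubule nuclei, with far more UMIs, had Klf4 at 0 to 2.68 CPM in knockouts and 0.71 to 1.68 CPM in controls.

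Of the other members, none passed the threshold in podocytes. The low-count filter left 3 to be tested, Klf7, Klf9 and Klf12, and 0 of them were called (edgeR quasi-likelihood test, Benjamini-Hochberg adjusted p under 0.05), against 5 of 1848 genes or 0.271% in all. That gene count was unsteady: DESeq2 called 32 genes, and edgeR called 0 without knockout 2 or control 2 and 250 without knockout 1. At an unadjusted p under 0.05, 163 of the genes and 0 of the members passed. DESeq2 called 0 of the members and gave Klf9 no adjusted p. Klf12 was at 211, 211 and 40.1 CPM in knockouts, against 219, 520.1 and 195 CPM in controls. The groups overlapped, with knockout 3 (4 UMIs) lowest and control 2 highest, and the fitted log2 fold change was -0.82 ± 0.54 (adjusted p = 0.651). Over all alternatives this value lay between -1.57 and -0.38 and its adjusted p between 0.155 and 0.985. Klf9 was at 118, 146 and 110.3 CPM in knockouts, against 165, 97.5 and 134 CPM in controls, with overlap (-0.19 ± 0.32 log2, adjusted p = 0.88). None of the 3 lay above every control, where 7.09% of genes did, or below every control, where 9.15% did.

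Klf7, one of the higher podocyte members, had 115, 228 and 431 CPM in knockouts, against 204, 97.5 and 256 CPM in controls in these nuclei. Knockout 3 was the highest and control 2 the lowest, and the groups overlapped (0.34 ± 0.50 log2, adjusted p = 0.851). The other members were not tested in podocytes for their low counts. Klf6 was at 72.7, 114 and 90.3 CPM in knockouts, against 56.7, 97.5 and 109.7 CPM in controls, with overlap. Klf15 stood at 17.6, 0 and 10.0 CPM in knockouts, against 33.5, 32.5 and 36.6 CPM in controls, from 7, 0 and 1 UMIs in knockouts and 13, 2 and 3 in controls. Each knockout lay below every control, and without the low-count filter its log2 fold change was -1.29 with an adjusted p of 0.703. Klf3 (40.1 to 70.2 CPM in knockouts and 36.6 to 65.0 CPM in controls) and Klf13 (32.5 to 100.3 CPM in knockouts and 48.8 to 98.0 CPM in controls) overlapped. Klf2 and Klf10 gave 0 to 1 and 0 to 10 UMIs in a library.

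Marker sums in the podocyte nuclei differed between the groups. The summed level of 13 podocyte markers was 45294, 64315 and 62244 CPM in knockouts, against 69907, 67026 and 73208 CPM in controls, lower in every knockout. The summed level of 13 parietal epithelial markers, among them Wt1 that is also a podocyte marker, was 3604, 6340.4 and 7903 CPM in knockouts, against 2194, 1723 and 2389.5 CPM in controls, higher in every knockout. The summed level of 16 proximal tubule markers was 9727, 2569 and 2578 CPM in knockouts, against 16481, 7574 and 6559 CPM in controls, with overlap through knockout 1. No marker of these 3 lists was at 0 in every library. Endothelial markers (148, 114 and 130.4 CPM in knockouts, against 229.5, 162 and 317 CPM in controls) and type A intercalated markers (47.7, 48.8 and 20.1 CPM in knockouts, against 85.1, 130.0 and 158 CPM in controls) were lower in every knockout, each list with 1 marker at 0 in every library. The part of these markers in the member values was not tested.

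**Figure D3:**
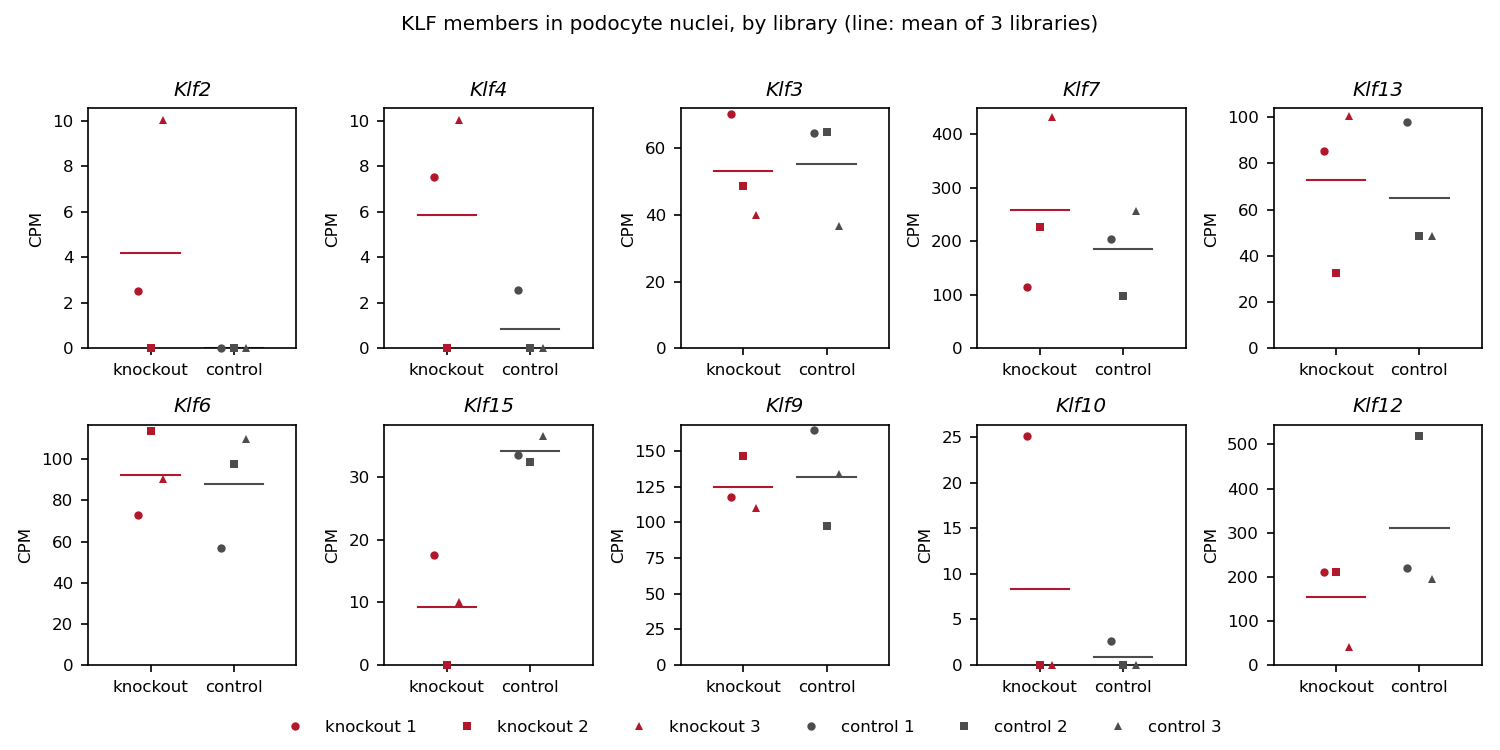
CPM of the 10 members in podocyte nuclei (panels, each with its own axis from 0), with 1 point per library, knockout left and control right, and a line at the mean of 3 libraries. Klf15 lies lower in each knockout than in each control, the other 9 members overlap, and Klf2 and Klf4 rest on 0 to 3 UMIs a library.

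Whether the podocyte change of a member differs from that of other named nuclei was tested as an interaction, with the podocyte sum and the sum of all other named classes of a library in 1 fit. None of the 10 members was called, against 39 of 12633 genes or 0.309% (edgeR, adjusted p under 0.05), and 614 genes and 2 members had an unadjusted p under 0.05. The sum of other named classes held injured tubule nuclei (2847 in knockouts and 122 in controls) and cycling nuclei (992 and 40). The part of these numbers in the differences was not tested. Klf6 had a difference of -1.34 ± 0.49 on the log2 scale (adjusted p = 0.567). For Klf10 it was 2.79 ± 1.39 (adjusted p = 1), with 11 podocyte UMIs in all, 10 of them in knockout 1. Klf12 differed by -0.29 ± 0.42 and Klf7 by 0.09 ± 0.40 (adjusted p = 1 for both), where the median over all genes was -0.04.

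Over all nuclei of a library, as a bulk nuclear profile would show them, Klf6 was the member with the smallest p between the genotypes. It stood at 57.7, 58.6 and 51.5 CPM in knockouts, against 22.4, 16.4 and 25.4 CPM in controls. All knockouts were above all controls, by 1.32 ± 0.20 on the log2 scale, with an adjusted p of 0.0719 (edgeR), outside the threshold. With the replicate number as a block the adjusted p was 0.0318, with DESeq2 3.77e-06, without both libraries numbered 1 it was 0.0177, and it was highest at 0.365 without knockout 2. In such a sum, more nuclei of a type and more RNA per nucleus cannot be told apart. None of the 10 members was called, against 31 of 16130 genes or 0.192%. An unadjusted p under 0.05 was found for 4 of 10 members, namely Klf6, Klf15, Klf12 and Klf13, against 1596 of 16130 genes.

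Klf15 was at 35.5, 34.7 and 24.8 CPM in knockouts, against 53.8, 49.3 and 53.0 CPM in controls over all nuclei (-0.77 ± 0.19 log2, adjusted p = 0.199), and DESeq2 called it with an adjusted p of 0.028. Klf13 was at 66.7, 76.5 and 68.8 CPM in knockouts, against 86.4, 78.2 and 96.6 CPM in controls (-0.36 ± 0.14, adjusted p = 0.455). The groups were apart in both, as for Klf6, so 1 of 10 tested members lay above every control, where 10.7% of all genes did, and 2 of 10 lay below every control, where 5.52% did. Klf12 overlapped between groups, at 518, 642 and 439.6 CPM in knockouts, against 642, 949 and 822 CPM in controls (-0.64 ± 0.20, adjusted p = 0.315). Klf4, the deleted gene, was at 5.72, 1.38 and 4.01 CPM in knockouts, against 2.63, 1.16 and 1.98 CPM in controls over all nuclei, from 206, 12 and 45 UMIs in knockouts and 128, 9 and 23 in controls. The groups overlapped (0.84 ± 0.56, adjusted p = 0.708), and the value was 0.37 without knockout 1 and 0.82 with the replicate block (adjusted p = 0.256). The other 5 members had log2 fold changes between -0.41 and 0.01 with adjusted p from 0.822 up.

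When injured tubule, cycling, mixed and unnamed nuclei were taken out of the sums, a choice made after seeing the data, Klf6 stood at 36.9, 43.9 and 38.1 CPM in knockouts, against 21.2, 18.0 and 24.1 CPM in controls. The groups were still apart, by 0.85 ± 0.18 on the log2 scale (adjusted p = 0.357). Of the 10 members, Klf6 lay above and Klf15 below every control, where 7.92% and 5.07% of genes did. In these sums none of the members was called, where 0.027% of genes were. An unadjusted p under 0.05 was found for 3 of 10 members, Klf6, Klf15 and Klf12, against 1060 of 14826 genes. Klf15 was at 38.7, 39.8 and 25.4 CPM in knockouts, against 55.5, 49.6 and 55.9 CPM in controls (-0.68 ± 0.22, adjusted p = 0.535).

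**Figure D4:**
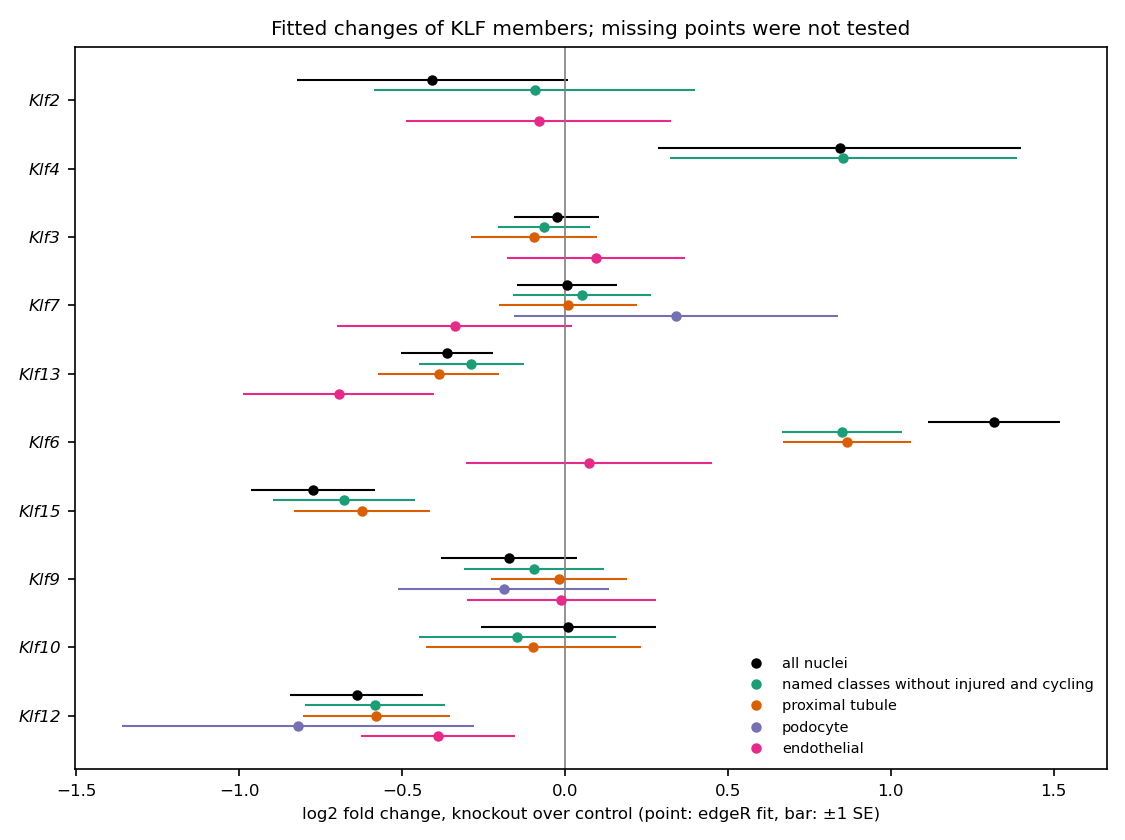
Fitted log2 fold change, knockout over control, of each member (rows) with a bar of 1 SE on each side, over all nuclei, over named classes without injured tubule and cycling nuclei, and in proximal tubule, podocyte and endothelial nuclei (colours). Klf6 lies above 0 and Klf15, Klf13 and Klf12 below 0 in each set shown in which they were tested, and no point shown passed an adjusted p of 0.05.

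Within single classes, 71 pairs of a member and a class could be tested in 14 classes. In 0 of the 71 was the member called by edgeR, against 0.0451% of all 70914 tested pairs of a gene and a class. DESeq2 called 0 as well, and 13 of the 71 had an unadjusted p under 0.05, against 5052 of all 70914 pairs. Over all members, 4 of 71 pairs were above and 8 of 71 below every control, where 8.33% and 6.32% of all tested pairs were. The classes of a library come from the same droplets and share its free RNA, so they are not separate tests.

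Klf6 had a higher mean in knockouts in 15 of 15 classes, and lay above every control in 3 of the 7 in which it was tested, namely proximal tubule, thick ascending limb and cycling nuclei. The share of all tested genes above every control there was 7.39%, 5.42% and 8.11%. In proximal tubule the log2 fold change was 0.87 ± 0.20 (adjusted p = 0.343; 3 of 12988 genes called, 0.0231%). Thick ascending limb nuclei held 36.7, 63.0 and 28.8 CPM in knockouts, against 24.9, 11.8 and 23.6 CPM in controls (0.89 ± 0.39, adjusted p = 0.944; 0 of 8430 genes called, 0%). Connecting tubule markers in thick ascending limb nuclei summed to 405, 235 and 386 CPM in knockouts, against 661, 1034 and 589 CPM in controls, lower in every knockout, and cycling markers to 64.8, 60.6 and 89.1 CPM in knockouts, against 18.9, 52.9 and 39.3 CPM in controls, higher in every knockout. In cycling nuclei the 3 controls had 2, 0 and 0 UMIs of Klf6, and endothelial markers, at 185, 83.9 and 99.1 CPM in knockouts, against 200.1, 214 and 327 CPM in controls, were lower in every knockout. The part of these markers in the Klf6, Klf15 and Klf12 values of these classes was not tested.

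Proximal tubule nuclei of the groups were spread unequally over clusters. Pooled over libraries, 19.4% of knockout ones lay in a cluster with 0.589% of control ones. Another cluster held 13.1% of control ones and 0.603% of knockout ones. The first held 1875, 319 and 56 of the 8196, 1831 and 1575 such nuclei in knockouts. The second held 1869, 121 and 97 of the 11527, 1552 and 2883 in controls. In each of the 9 proximal tubule clusters with a value in at least 2 libraries of each group, the Klf6 mean was higher in knockouts, by a median of 1.79 times, and in 4 of the 9 all 3 knockouts were above all 3 controls. In a further one knockouts 1 and 3, with 2 and 5 Klf6 UMIs, were above the 3 controls, and knockout 2 had 7 nuclei and no value. Some of the 9 rest on few Klf6 UMIs: controls had 1, 0 and 1 in the Bbox1-led cluster and 2, 1 and 3 in the Kcnh4-led one. The clusters come from the same libraries, and the share of all genes apart in them was not computed. With the unnamed Bcat1-led cluster counted as proximal tubule, a choice made after seeing the data, the log2 fold change was 0.74 for Klf6 (adjusted p = 0.488), -0.64 for Klf15 (adjusted p = 0.554) and -0.63 for Klf12 (adjusted p = 0.617). Injured tubule markers, 16 genes in sum, were at 797, 719.7 and 975 CPM in knockouts, against 516, 417 and 579.7 CPM in controls in proximal tubule nuclei, higher in every knockout. Immune markers (219.9, 185 and 241 CPM in knockouts, against 119.9, 117 and 120.3 CPM in controls) and cycling markers (44.0, 83.7 and 70.4 CPM in knockouts, against 18.0, 30.9 and 28.2 CPM in controls) were higher in every knockout as well. Type A intercalated markers (23.7, 23.1 and 17.0 CPM in knockouts, against 44.2, 61.0 and 24.7 CPM in controls) and type B markers (31.6, 27.4 and 18.2 CPM in knockouts, against 40.7, 91.5 and 31.7 CPM in controls) were lower in every knockout. The part of these markers in the member values was not tested.

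Klf15 had a lower mean in knockouts in 12 of 15 classes, and lay below every control in 3 of the 5 in which it was tested, proximal tubule, thick ascending limb and injured tubule, where 5.63%, 4.22% and 15.2% of tested genes did. The log2 fold change in proximal tubule was -0.62 ± 0.21 (adjusted p = 0.545) and in injured tubule -1.85 ± 0.62 (adjusted p = 0.267). Thick ascending limb held 30.8, 21.8 and 21.1 CPM in knockouts, against 52.9, 52.9 and 31.4 CPM in controls (-0.92 ± 0.32, adjusted p = 0.944). Of the 9 shared proximal tubule clusters, 8 had a lower Klf15 mean in knockouts, at a median of 0.665 of the control mean. Some rest on few Klf15 UMIs, such as 3, 5 and 5 in controls of the Kcnh4-led cluster. Klf13 also lay below every control in proximal tubule, at 56.2, 74.0 and 60.1 CPM in knockouts, against 77.6, 74.3 and 93.9 CPM in controls, with knockout 2 close to control 2 (-0.39 ± 0.18, adjusted p = 0.695). In injured tubule Klf9 was at 150.5, 218 and 168 CPM in knockouts, against 279 and 281 CPM in controls (controls 1 and 3), with no overlap (-0.66 ± 0.26, adjusted p = 0.328). Klf3 was at 112, 74.8 and 91.4 CPM in knockouts, against 68.6 and 0 CPM in controls there, above both controls, as 19.7% of tested genes were (0.82 ± 0.53, adjusted p = 0.563).

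The injured tubule nuclei of the groups differed in their markers. Their 16 injured tubule markers summed to 3822, 4394 and 4506 CPM in knockouts, against 2012 and 1445 CPM in controls (controls 1 and 3 here and below), higher in every knockout. The 16 proximal tubule markers summed to 11499, 10130.1 and 10733 CPM in knockouts, against 23619.6 and 17076 CPM in controls, lower in every knockout, and the cycling markers to 119, 291 and 189 CPM in knockouts, against 18.3 and 40.1 CPM in controls, higher in every knockout. No marker of these 3 lists was at 0 in every library. Podocyte, parietal epithelial, distal convoluted tubule and immune marker sums were also higher in every knockout, and connecting tubule and principal ones lower. The class came from 2 clusters: one, led by Cd44, Kcnip4 and Havcr1, held 1328 knockout and 27 control nuclei, and the other, led by Dock10, held 1519 knockout and 95 control nuclei. The part of these differences in the Klf15, Klf9, Klf3, Klf12 and Klf6 values of injured tubule was not tested.

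Klf12 had a lower mean in knockouts in 15 of 15 classes, although none passed the threshold. In proximal tubule it stood at 573, 689.9 and 442 CPM in knockouts, against 660.1, 997 and 890.4 CPM in controls, and the groups overlapped through knockout 2 and control 1 (-0.58 ± 0.23, adjusted p = 0.625). Of its 14 tested classes it lay below every control in 3, endothelial, cycling and injured tubule, where 4.37%, 5.89% and 15.2% of genes did. The libraries kept much of their order from class to class: among the 13 classes with all 6 libraries, control 2 was the highest control in 12 and knockout 3 the lowest knockout in 9. In type B intercalated nuclei Klf12 was at 314, 541 and 216 CPM in knockouts, against 428, 817 and 568 CPM in controls, and passed only with the replicate number as a block (-0.80, adjusted p = 0.0293). In the fit without the block it had -0.81 ± 0.33 and an adjusted p of 0.667 (1 of 5326 genes called, 0.0188%).

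**Figure D5:**
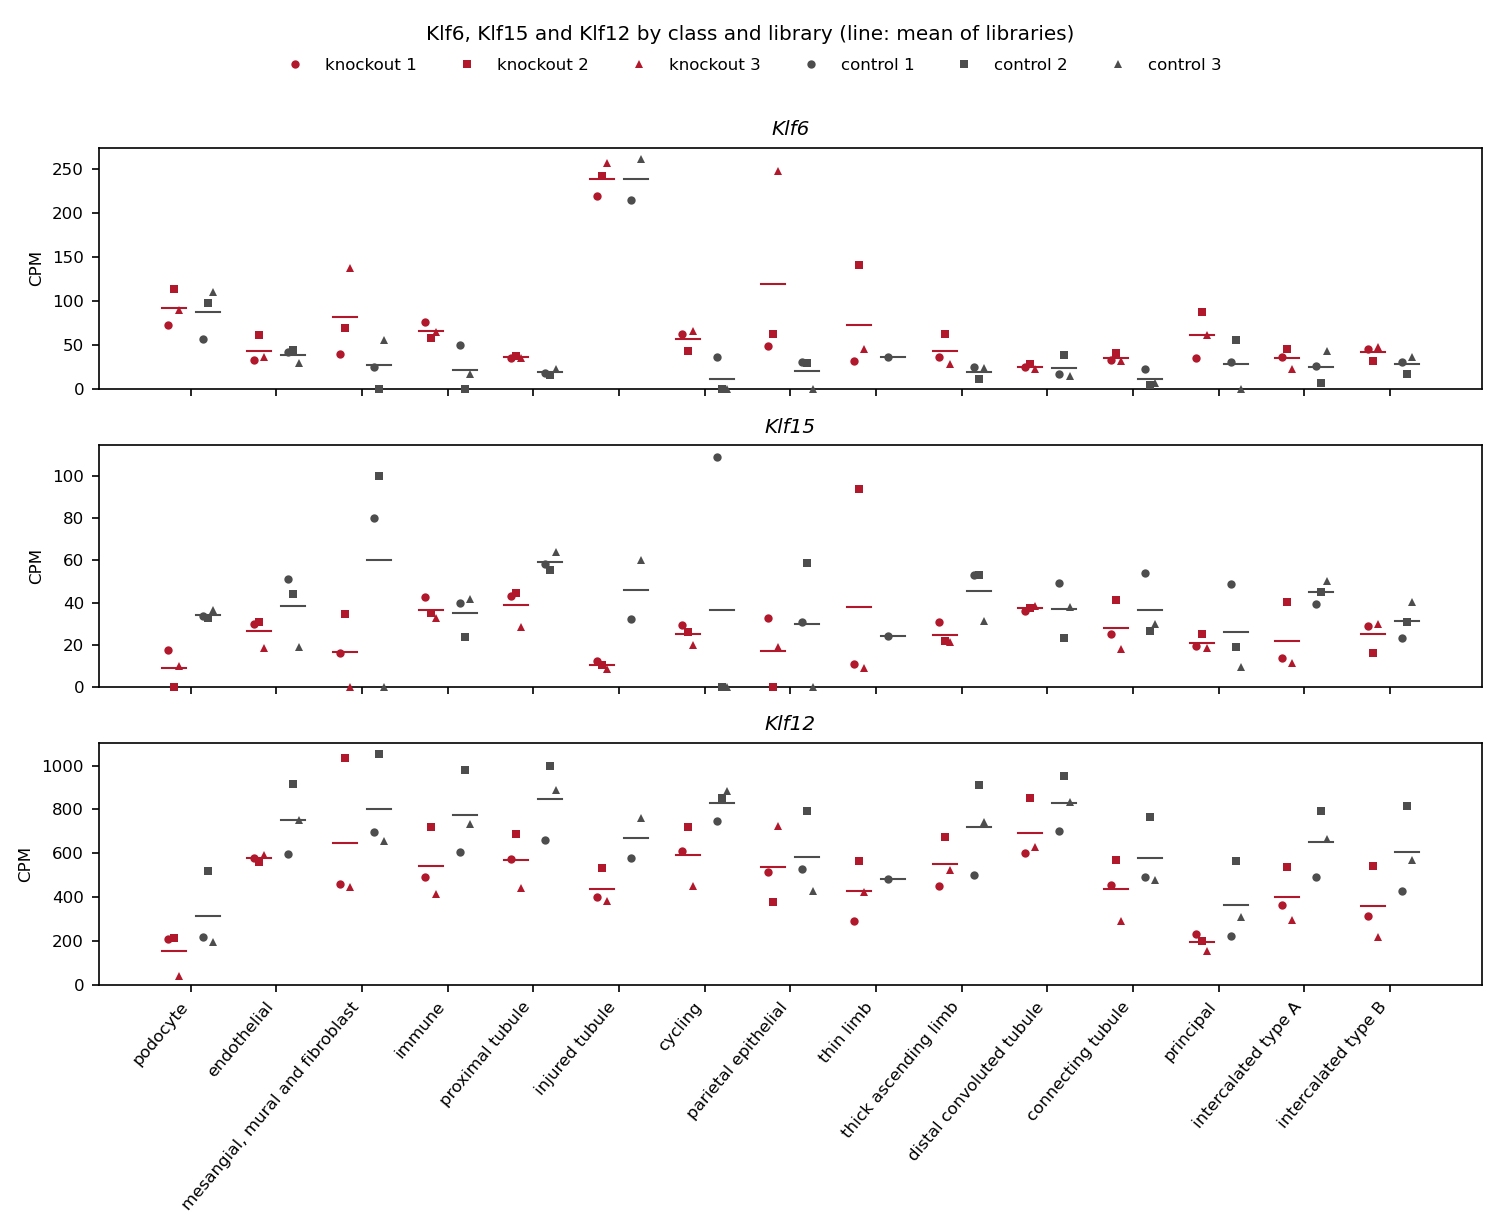
CPM of Klf6, Klf15 and Klf12 (panels) in 15 classes of nuclei, with 1 point per library (knockout red and left, control grey and right) and a line at the mean of a group. The Klf6 mean is near 240 CPM in injured tubule of both genotypes and far lower in most other classes, and the Klf12 mean is lower in knockouts in every class.

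In parietal epithelial nuclei the counts were small, and Klf12 was the only member tested (-0.05 ± 0.40, adjusted p = 0.953; 7 of 892 genes called, 0.785%). Klf6 stood at 48.9, 62.8 and 247 CPM in knockouts, against 30.9, 29.4 and 0 CPM in controls, from 6, 2 and 13 UMIs in knockouts and 2, 1 and 0 in controls. Each knockout lay above every control, as for 9.98% of tested genes there, and knockout 3 far above the others. Klf10 also lay above every control in each knockout, from 5 UMIs in knockouts and 0 in controls. Proximal tubule markers summed to 11713, 8106 and 3269 CPM in knockouts, against 22017, 17758 and 9345 CPM in controls there, with overlap and lowest in knockout 3, and injured tubule markers to 2370.3, 4398 and 3764 CPM in knockouts, against 1903, 939 and 2467 CPM in controls, also with overlap. Endothelial markers (179, 346 and 1026 CPM in knockouts, against 155, 147 and 47.4 CPM in controls) and cycling markers (334, 471 and 171 CPM in knockouts, against 46.4, 117 and 94.9 CPM in controls) were higher in every knockout. Mesangial, mural and fibroblast markers summed to 1336, 1948 and 4847 CPM in knockouts, against 1037, 616 and 2324 CPM in controls, with overlap. In knockout 3 they were above the parietal epithelial markers, which summed to 4296 CPM. The part of these markers in the Klf6 and Klf10 values was not tested.

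In endothelial nuclei, to which Podocin-Cre is not directed, none of the 7 tested members differed past the threshold or lay above every control, where 6.42% of genes did, and 0 of 5839 genes were called (0%; 324 had an unadjusted p under 0.05). DESeq2 called none of the members either. The class leaves out the set-aside clusters with endothelial markers, which held 3352 nuclei. There Klf6 was at 47.0, 42.4 and 44.4 CPM in knockouts, against 21.1, 13.7 and 30.6 CPM in controls, higher in every knockout. Klf13 and Klf12 were lower in every knockout in those clusters. For Klf12 the gap was narrow, with knockout 2 at 718.2 CPM and control 1 at 719.1 CPM. The other members overlapped there. No member was tested in these clusters, and the share of all genes apart in them was not computed. In the endothelial class Klf2 had a log2 fold change of -0.08 ± 0.41, Klf7 one of -0.34 ± 0.36 and Klf3 one of 0.10 ± 0.27 (adjusted p = 1 for each). With KLF and SP genes among the clustering genes Klf2 had -0.99 and Klf7 -0.74 (adjusted p = 0.838 for both). Without the Bcat1-led cluster, a choice made after seeing the data, Klf2 had 0.46, Klf7 0.08 and Klf3 0.36 (adjusted p = 0.987, 0.997 and 0.987). Klf13, at 96.7, 82.2 and 113 CPM in knockouts, against 131, 111 and 219.6 CPM in controls, was the member with the smallest p (-0.69 ± 0.29, adjusted p = 0.883), and the groups overlapped through knockout 3 and control 2. Klf12 was at 580.4, 559.7 and 592 CPM in knockouts, against 595, 915 and 749.7 CPM in controls, each knockout just below every control (-0.39 ± 0.24, adjusted p = 0.983). Klf15, not tested for its low counts, was at 30.0, 30.8 and 18.3 CPM in knockouts, against 51.4, 44.3 and 18.7 CPM in controls, with overlap. Proximal tubule markers in endothelial nuclei summed to 13745, 13104 and 11400.4 CPM in knockouts, against 21344, 12736 and 10089 CPM in controls, with overlap. Cycling markers (180.1, 236 and 270.4 CPM in knockouts, against 62.6, 59.1 and 102 CPM in controls) were higher in every knockout, and type B intercalated markers (53.4, 10.3 and 25.6 CPM in knockouts, against 86.0, 169.8 and 99.1 CPM in controls) were lower in every knockout. Their part in these values was not tested.

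Of 10 endothelial genes known to lie under KLF2 and KLF4, 7 were tested in endothelial nuclei and 0 were called. The log2 fold change was positive for 3 and negative for 4, with a median of -0.07 against -0.02 over all genes. The list was not split into genes these factors raise and genes they hold down, so signs and medians do not show their activity. Vcam1, an adhesion molecule that both factors hold down, was at 73.4, 15.4 and 36.5 CPM in knockouts, against 20.1, 7.38 and 32.1 CPM in controls. The groups overlapped (1.06 ± 0.54 log2, adjusted p = 0.939). Vcam1 is also a marker of injured tubule, whose 16 markers summed to 767, 514 and 786 CPM in knockouts, against 517, 273 and 511 CPM in controls in endothelial nuclei, and their part was not tested. Icam1, another adhesion molecule, was at 73.4, 25.7 and 29.2 CPM in knockouts, against 15.6, 36.9 and 45.5 CPM in controls (0.69 ± 0.53, adjusted p = 0.986). None of the 10 was tested in podocytes. Over all nuclei 9 of the 10 were tested, 3 had an unadjusted p under 0.05 and 1 was called, against 0.192% of genes, with a median log2 fold change of -0.16. The called gene was Vcam1, at 63.7, 35.6 and 21.0 CPM in knockouts, against 2.90, 1.16 and 2.16 CPM in controls over all nuclei, higher in every knockout (4.12 ± 0.53, adjusted p = 0.0496). It was named for being the only one called, after its values were seen, and was among the 10 leading genes of both injured tubule clusters.

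The rest of the family gave few counts. Of 7 other KLF genes, 0 were tested in podocytes and 1 in endothelial nuclei, Klf8, at 30.0, 20.5 and 51.2 CPM in knockouts, against 26.8, 59.1 and 37.5 CPM in controls. Over all nuclei 5 of the 7 were tested and 0 called, 2 with an unadjusted p under 0.05, and 4 of the 5 log2 fold changes were negative (median -0.34, against -0.03 over all genes). Of 9 SP genes, 0 were tested in podocytes and 3 in endothelial nuclei, with none called: Sp1 had 0.37 ± 0.37 and Sp3 -0.26 ± 0.32 (adjusted p = 1 for both). Of 14 KLF co-regulators, 4 were tested in podocytes and 10 in endothelial nuclei, and 0 were called in either, with median log2 fold changes of -0.23 and 0.08. The ubiquitin ligase Wwp1, which marks KLF proteins for breakdown, was at 201, 211 and 120.4 CPM in knockouts, against 224, 406 and 219 CPM in controls in podocytes. Each knockout lay below every control (-0.56 ± 0.33, adjusted p = 0.615). Crebbp, a histone acetyltransferase, had -0.27 ± 0.26 there (adjusted p = 0.757). In endothelial nuclei the co-repressor Ncor1 had 0.24 ± 0.28 and the acetyltransferase Kat2b 0.13 ± 0.23 (adjusted p = 1 for both).

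Genes upstream and downstream of KLF members were not called in podocytes or endothelial nuclei either. Of 18 immediate early and stress genes, many of them transcription factors switched on within minutes of a stimulus, 0 were tested in podocytes and 5 in endothelial nuclei, all with a negative log2 fold change (median -0.35). Jun was at 75.0, 46.2 and 29.2 CPM in knockouts, against 96.1, 59.1 and 66.9 CPM in controls in endothelial nuclei and Egr1 at 31.7, 20.5 and 7.31 CPM in knockouts, against 39.1, 36.9 and 24.1 CPM in controls (adjusted p = 0.986 for both), with overlap in each. The summed level of the 18 was 649.6, 406 and 1163 CPM in knockouts, against 567, 325 and 366 CPM in controls in podocytes, highest in knockout 3. Of 11 glucocorticoid response genes, 4 were tested in podocytes (median -0.35) and 10 in endothelial nuclei (median -0.20). Nr3c2, the mineralocorticoid receptor, was at 196, 146 and 90.3 CPM in knockouts, against 211, 228 and 293 CPM in controls in podocytes, with no overlap (-0.61 ± 0.34, adjusted p = 0.599), and had -0.40 ± 0.23 in endothelial nuclei (adjusted p = 0.97). Errfi1, a brake on EGF receptor signalling, was at 908, 309 and 261 CPM in knockouts, against 722, 943 and 987 CPM in controls in podocytes (-0.69 ± 0.46, adjusted p = 0.652). Fkbp5, a classical glucocorticoid target, was at 172, 668 and 347 CPM in knockouts, against 137, 199 and 214 CPM in controls in endothelial nuclei (1.07 ± 0.42, adjusted p = 0.883).

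Of 23 podocyte structure and identity genes, 20 were tested in podocytes and 0 called, with 8 positive and 12 negative log2 fold changes and a median of -0.05 against -0.02 over all genes. Thsd7a, a podocyte surface protein, was at 1522, 1788 and 1635 CPM in knockouts, against 2826, 2763 and 3072 CPM in controls. The groups did not overlap (-0.78 ± 0.20, adjusted p = 0.164). Myo1e, a myosin of the foot process, was at 1570.2, 2309 and 2838 CPM in knockouts, against 1271, 894 and 1829 CPM in controls, with overlap (0.76 ± 0.32, adjusted p = 0.541). In endothelial nuclei 11 of the list were tested and 0 called, and those with the smallest p were Col4a4 (0.56 ± 0.27, adjusted p = 0.91) and Npnt (0.76 ± 0.39, adjusted p = 0.939).

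Of 12 branched-chain amino acid and lipid genes under KLF15, 3 were tested in podocytes, all with a negative log2 fold change (median -0.53), and 11 in endothelial nuclei, 8 of them negative (median -0.32), and 0 were called. Slc27a2, a fatty acid transporter that is also a proximal tubule marker, was at 709.8, 146 and 100.3 CPM in knockouts, against 879, 829 and 634 CPM in controls in podocytes, with overlap (-1.08 ± 0.61, adjusted p = 0.599). Hibadh, an enzyme of valine breakdown, was at 143, 179 and 130.4 CPM in knockouts, against 255, 260.0 and 122 CPM in controls there, also with overlap (-0.53 ± 0.35, adjusted p = 0.652). In endothelial nuclei Cpt1a, which brings fatty acids into mitochondria, had -0.46 ± 0.27 (adjusted p = 0.97) and Aldh6a1, of valine breakdown, -0.58 ± 0.36 (adjusted p = 0.983). Over all nuclei 12 were tested and 0 called, 2 with an unadjusted p under 0.05, and 10 log2 fold changes were negative (median -0.48). The other 5 lists, of SP genes, co-regulators, immediate early and stress, glucocorticoid response and podocyte genes, also had 0 genes called over all nuclei, and 0, 0, 4, 4 and 5 with an unadjusted p under 0.05. Their median log2 fold changes lay between -0.22 and 0.07. The proximal tubule marker sums given above overlapped between the groups in both classes, and their part in these values was not tested.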

How the data were processed

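Per the submitters' processing notes, Cell Ranger 3.1.0, the mm10 build and Seurat were used. The authors' deposited matrices give unnormalized UMI counts for each gene in each barcode. Barcodes with under 300 genes or over 5% mitochondrial UMIs were left out, as were 7516 barcodes with the highest Scrublet doublet scores (0.8% per 1000 barcodes), since its own threshold marked 0 to 6 in a library. Nuclei were clustered with scanpy 1.11.5 on 3000 variable genes without KLF and SP genes. Clusters were named from marker lists, with the looser rule given above for proximal tubule. Limits on proximal tubule RNA in a cluster were set after seeing the data.

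Counts were summed per library and class and tested with edgeR 4.0.16 (quasi-likelihood, TMM factors, a low-count filter, Benjamini-Hochberg adjustment over all genes of a class, threshold 0.05), in R 4.3.3. DESeq2 1.42.0, other scaling factors, no filter, a replicate block, other classes, another clustering seed and left-out libraries were alternatives. Thin limb, with 1 control library, was not tested. Deviations of same-numbered libraries from their group means correlated at 0.717, 0.393 and 0.457 over all nuclei, at 0.452, 0.124 and 0.292 in endothelial nuclei and at 0.671, 0.291 and 0.333 in proximal tubule. The main fits used no pairing of libraries, and the replicate block was an alternative only. Deviations of 3 libraries from their own mean sum to 0, so these correlations do not settle whether the numbers pair the libraries. Libraries numbered 2 and 3 also correlated across numbers (0.442 and 0.427 over all nuclei, 0.39 and 0.277 in proximal tubule, -0.001 and 0.05 in endothelial nuclei), while number 1 went against both others (-0.594 to -0.526 over all nuclei). In podocytes same-numbered libraries correlated at 0.347, 0.04 and 0.191.

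All 10 members are named in the classes where their values are described. Likeness to a member was Pearson's r over class means of log2(CPM + 10), and the 3 genes with the highest r are named, except 1 that is not reported here. From each list, in podocytes and endothelial nuclei, up to 4 genes past the threshold are named, or else the 2 with the smallest p. The members and lists were chosen with earlier results of these data known. Promoter sequences are RefSeq's for GRCm38.p6, found for 9 of the 10 members. The limit of 3 UMIs covers counting error only.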

Additional observations from a re-analysis of the deposited data

How the results depend on the processing

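The 29 log2 fold changes of members were recomputed 433 times: 387 kept their direction and their side of the threshold, 5 gained a call and 41 changed sign. None of the 29 was called in the main fits, so none could lose a call. Pairs of a member and a class called were 0, and 1 each with the replicate block (Klf12 in type B intercalated nuclei) and by highest marker score (Klf6 in injured tubule). Genes called in podocytes were 5, against 32 with DESeq2, 77 without the low-count filter, 13 with the replicate block, 132 without both libraries numbered 1, 9 by highest marker score, 9 with doublets kept, 9 with KLF and SP genes among the clustering genes, 11 with another clustering seed and 0 (without knockout 2 or control 2) to 250 (without knockout 1) with 1 library left out. Members called over all nuclei were 0, against 2 with DESeq2, 1 with the replicate block and 1 without both libraries numbered 1. The block changed no other call of a member. All 10 highest classes served as the base; 6 held without both libraries numbered 1, and 6 (without knockout 1) to 10 with 1 library left out. The causes were not tested.

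These log2 values changed sign in at least 1 setting. In podocytes, with 1 library left out, Klf7 was at -0.26 to 0.78 and Klf9 at -0.34 to 0.17. In endothelial nuclei Klf2, Klf7 and Klf6 were at 0.46, 0.08 and -0.09 without the Bcat1-led cluster. Klf2 was at 0.22 with another seed and -0.31 to 0.34 with 1 library left out. Klf3 was at -0.11 with KLF and SP genes among the clustering genes and -0.08 to 0.31 with 1 library left out. Klf7 was at 0.05 with another seed and -0.57 to 0.23 with 1 library left out. Klf6 was at -0.01 with the block and -0.16 to 0.28 with 1 library left out. Klf9 was at 0.00 without the filter, 0.32 without both libraries numbered 1, 0.07 by highest marker score, 0.17 with doublets kept, 0.03 with KLF and SP genes among the clustering genes, 0.03 without barcodes found in 2 libraries and -0.33 to 0.19 with 1 library left out. Over all nuclei, with 1 library left out, Klf3 was at -0.07 to 0.06, Klf7 at -0.06 to 0.15 and Klf10 at -0.23 to 0.22. Klf10 was at -0.01 with the block and -0.30, and Klf9 at 0.02, without both libraries numbered 1. Klf6 in injured tubule was at -0.23 with doublets kept, -0.00 with KLF and SP genes among the clustering genes, -0.03 without barcodes found in 2 libraries and -0.02 to 0.05 with 1 library left out. The settings with another seed, with Bcat1-led clusters moved, without barcodes found in 2 libraries, without injured and unnamed nuclei, and with doublets kept over all nuclei were chosen after seeing the data. Injured tubule without control 1, control 3 or both libraries numbered 1 kept 1 control library and was not run, nor was principal with the other seed, which had none. Klf4 in podocytes rests on 5 UMIs, which limits any statement on it.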
